A study of Homo sapiens with 6 samples.

Results

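The semaphorin, plexin, neuropilin, Eph and ephrin genes were followed in RNA-seq libraries of MDA-MB-231 cells, a line derived from a triple-negative breast cancer. Members were taken by gene symbol from the deposited table: SEMA3 to SEMA7 genes with a letter, plexins A to D, NRP1 and NRP2, the EPHA and EPHB receptors, and the EFNA and EFNB ligands. This gave 53 of the 61806 genes: 7 secreted (class 3) semaphorins, 13 membrane-bound semaphorins, 2 neuropilins, 9 plexins, 9 EphA receptors, 5 EphB receptors, 5 ephrin-A and 3 ephrin-B ligands. The rule read gene names and used no measured value, but the family was chosen with earlier results of these data known.

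The samples were 3 lines with 2 libraries each: shNC, which carries a control shRNA, and shHMGA2-1 and shHMGA2-2, each carrying an shRNA against HMGA2, an architectural chromatin protein that binds AT-rich DNA. The methods describe growing each knockdown line from a single clone and do not state this for shNC. Each group is thus 1 line, and an effect of the shRNA and other differences between lines cannot be told apart. The sample titles were followed, although the library names mark the controls as wild type ("WT"), those of shHMGA2-1 carry "SH2-C9" and those of shHMGA2-2 carry "2671". Nothing in the sources says that the 2 samples of a line were separate cultures, so p-values measure the spread between these samples, which may be technical.

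Library totals ran from 16461178 to 17167293 counts. Where a library shows 0 counts, up to 3 remain possible by counting error alone, which is 0.175 to 0.182 counts scaled to a library total of 1e6 (CPM). Within a line the libraries differed beyond sampling noise (chi-square per degree of freedom 2.05 to 6.6). The targeted gene, HMGA2, gave 2126 and 2161 counts in shNC, compared with 858 and 989 in shHMGA2-1 and 435 and 482 in shHMGA2-2. This is a log2 fold change of -1.29 and -2.31 (edgeR adjusted p = 1.975e-11 and 1.81e-16). All 6 MDA-MB-231 markers (VIM, CD44, AXL, FOSL1, CAV1, MSN) were above 3 counts in every library. Leukocyte and endothelial markers summed to at most 0.47 and 0.13 FPKM (fragments per kilobase of exon per 1e6 counts). The 8 luminal and epithelial markers summed to 22.4 to 23.9 FPKM in shNC, 28.3 to 32.1 in shHMGA2-1 and 44.5 to 49.1 in shHMGA2-2, with 6, 5 and 4 of the 8 above 3 counts in every library of the line and with PGR at no more than 2, CDH1 at no more than 4 and ESR1 at no more than 12 counts. KRT8 was the highest of these markers in every library, at 11.36 and 10.67 FPKM in shNC and 27.02 and 29.94 in shHMGA2-2. FOXA1 instead went from 110 and 94 counts in shNC to 5 and 1 in shHMGA2-2. Among the MDA-MB-231 markers AXL was at 224.88 and 231.97 FPKM in shNC and 126.16 and 131.81 in shHMGA2-2, and MSN and FOSL1 were also lower there. The other listed markers did not fall alike. CD44 went from 64.86 and 65.97 FPKM in shNC to 95.84 and 92.56 in shHMGA2-2. CAV1 went from 158.22 and 155.32 to 184.1 and 188.94. VIM stayed close, at 418.36 and 432.07 in shNC and 411.32 and 411.33 in shHMGA2-2. The luminal sum, FOXA1, AXL, MSN, FOSL1 and CD44 moved in the same order of lines as several results below, and their part in them was not tested. In RNA from bulk cultures, fewer cells with a transcript and less of it per cell cannot be told apart.

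Semaphorins are ligands first known for steering growing axons. Secreted class 3 semaphorins bind a neuropilin, which has a large outer and a short inner part, and the neuropilin hands the signal to a class A or class D plexin that acts on small GTPases and the cytoskeleton. Membrane-bound semaphorins mostly bind plexins directly. Eph receptors are tyrosine kinases that meet their ligands, the ephrins, on the surface of a neighbouring cell; ephrin-A ligands are held by a lipid anchor and ephrin-B ligands span the membrane and can signal themselves. In tumours both systems are known for effects on migration, invasion and vessel growth.

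Of the 53 members, 43 passed the filter on low counts and were tested. The 10 others stayed at or below 12 counts, and among them EPHB1 and EPHB6 had 0 counts in every library while EPHA8 and SEMA5B had at most 2. In shNC, 6 members had a mean of at least 10 FPKM, 18 had 1 to 10 and 29 had less than 1. The family was thus carried by few genes: NRP1, EPHA2, SEMA3C, PLXNB2, PLXNA1 and SEMA7A.

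**Figure D1:**
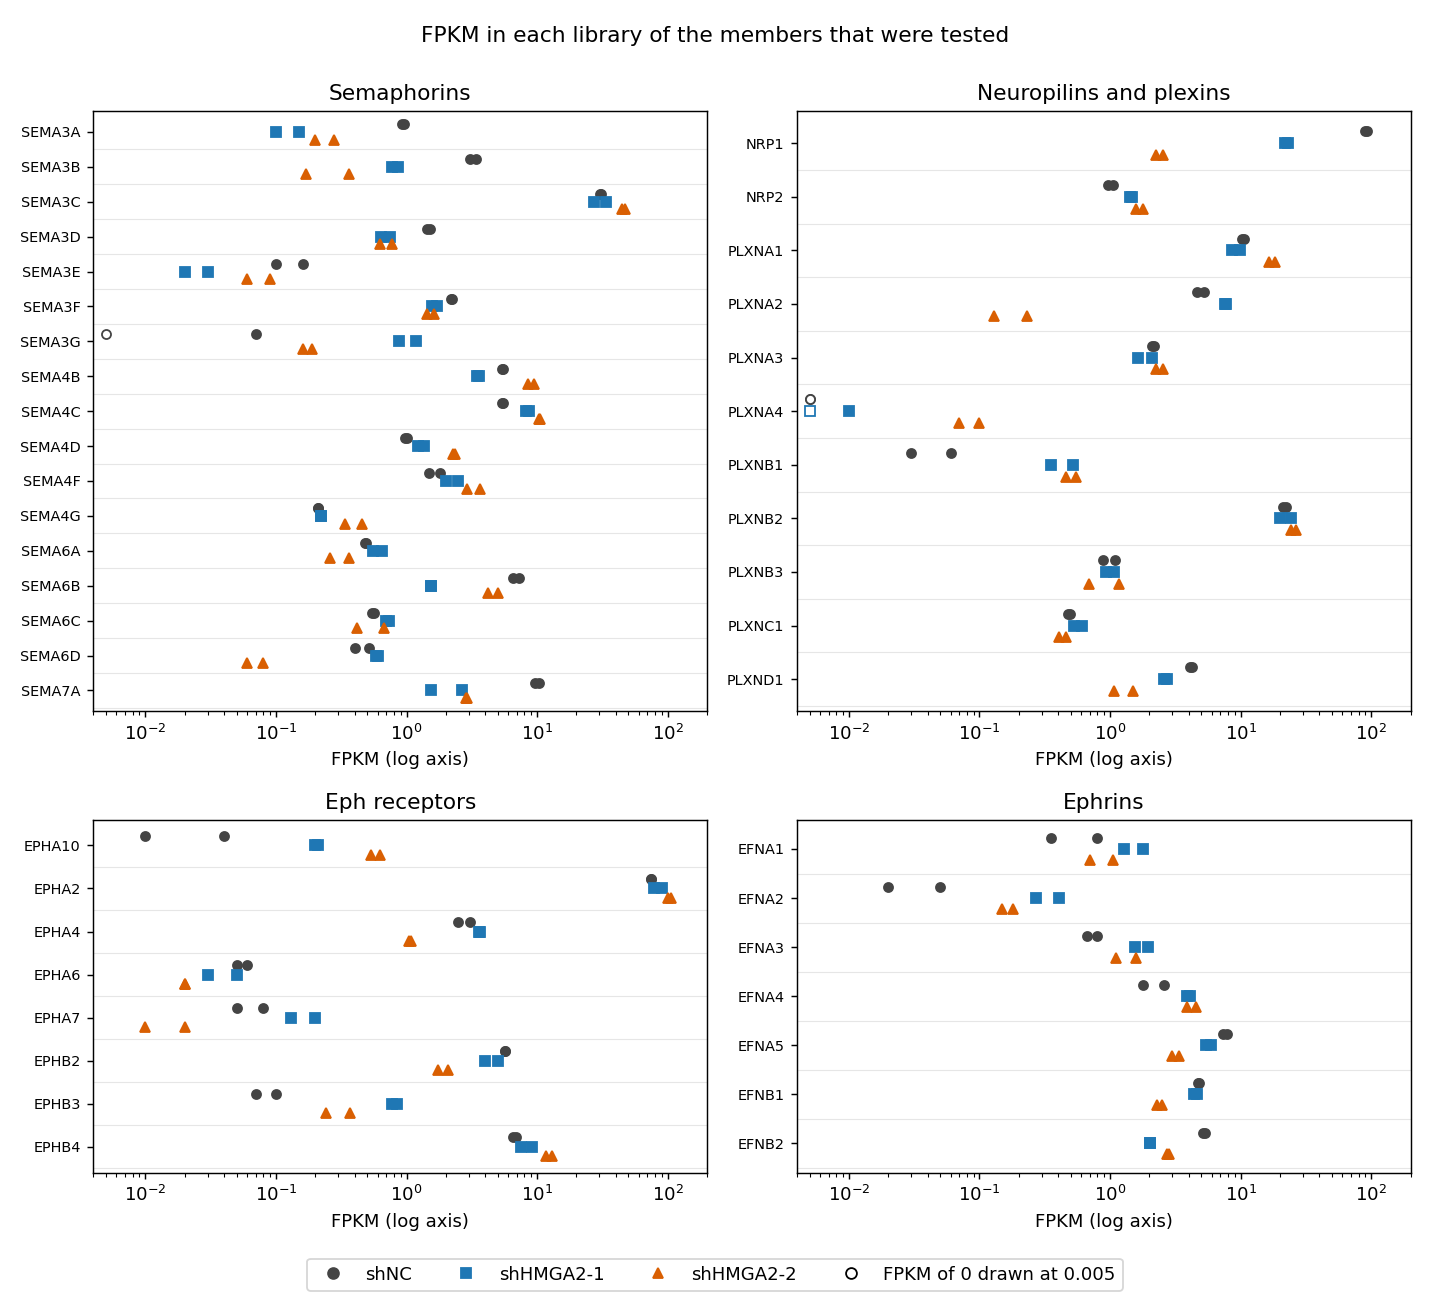
FPKM (log axis) of each tested member in each of the 6 libraries, with shNC as circles, shHMGA2-1 as squares and shHMGA2-2 as triangles; open symbols stand for 0. NRP1 stepped down from 89.32 and 92.48 in shNC to 2.55 and 2.25 in shHMGA2-2, while EPHA2, SEMA3C and PLXNB2 stayed among the highest members in every library.

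A member was called when its edgeR adjusted p was under 0.05 and its change was at least 2-fold. In shHMGA2-1 against shNC 8 members were called higher and 8 lower of 43 tested, where 4.89% of all 16110 tested genes were called higher and 3.59% lower. In shHMGA2-2 against shNC 6 were higher and 15 lower, against 11.7% and 9.65% of all genes. The median log2 fold change of the tested members was 0.12 and -0.14, beside 0.01 and 0.03 over all genes.

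Members called the same way in both knockdown lines, which share their shNC libraries, numbered 10. The 6 lower ones were NRP1, SEMA3A, SEMA3B, SEMA3D, SEMA7A and EFNB2, and the 4 higher ones were SEMA3G, PLXNB1, EPHA10 and EPHB3. EPHA7 was called in opposite directions. A further 5 members were called in shHMGA2-1 alone and 10 in shHMGA2-2 alone, and 17 tested members in neither. Of all tested genes, 2.12% were lower and 3.36% higher in both lines, 0.49% were called in opposite directions, 2.51% in shHMGA2-1 alone and 15.3% in shHMGA2-2 alone, and 76.2% in neither. Whether a change differed between the lines was tested directly by comparing shHMGA2-2 with shHMGA2-1, where 4 members were called higher and 10 lower, beside 7.83% and 7.27% of all genes.

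**Figure D2:**
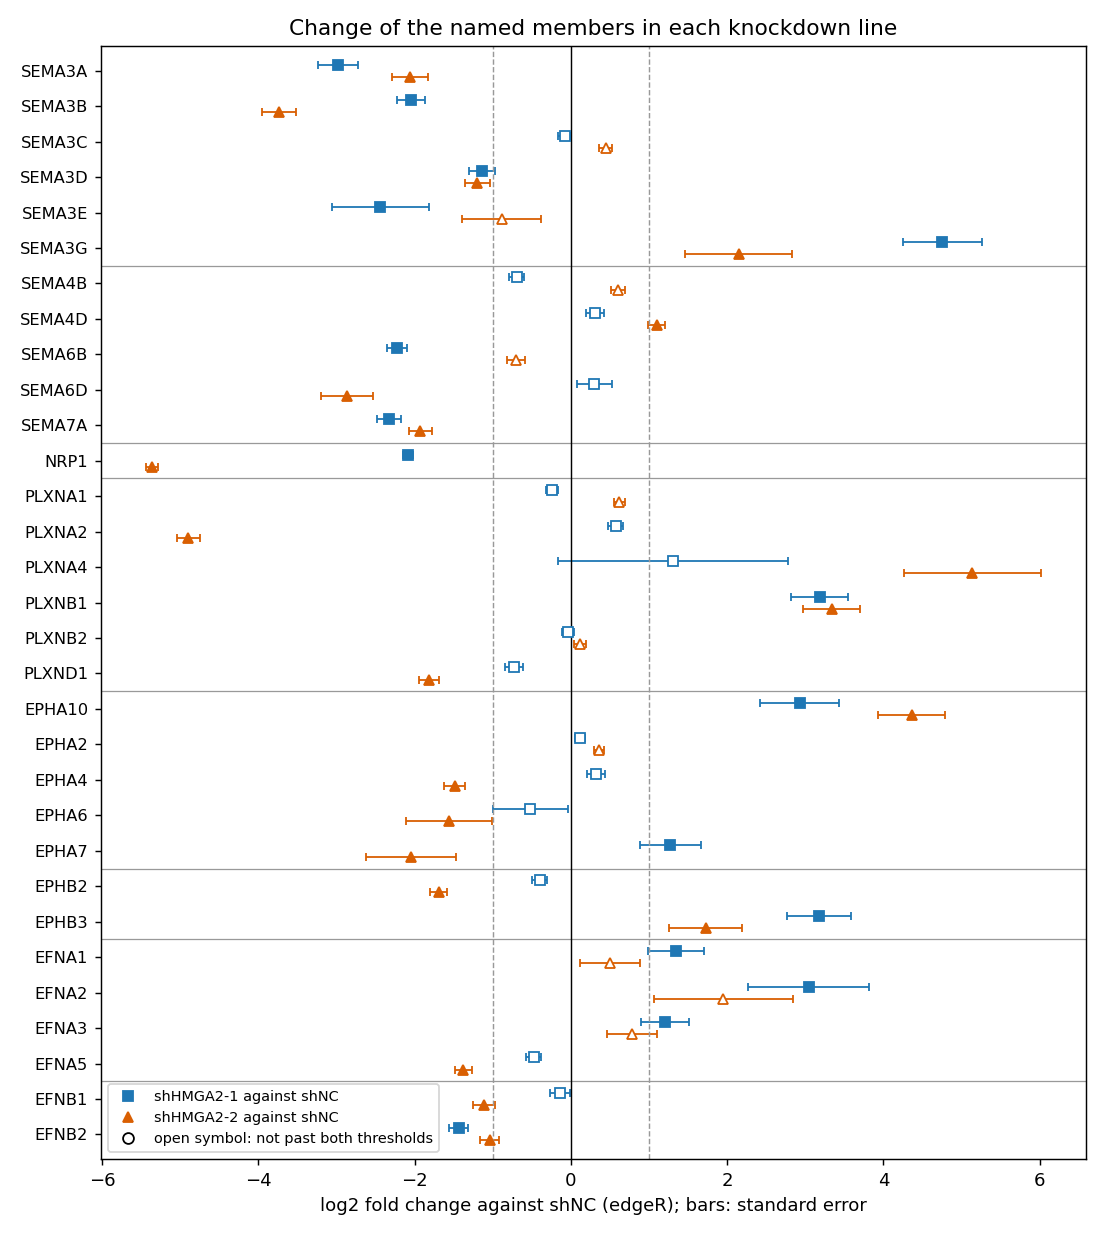
Log2 fold change against shNC (edgeR, bars are standard errors) of the 31 members chosen for naming, in shHMGA2-1 (squares) and shHMGA2-2 (triangles), grouped by class; filled symbols passed both thresholds and dashed lines mark 2-fold. NRP1 at -2.09 and -5.36 and PLXNA2 at 0.57 and -4.90 lie lowest in shHMGA2-2.

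To show the sequence next to the starts of members that moved the same way in both lines, the 150 bases before the start are given for the 6 of these 10 whose start in RefSeq (GRCh38.p14) falls on the first base of the gene in the deposited table. They are written 5′ to 3′ on the gene's strand, and capitals mark runs of at least 6 A or T and the letters GGGCGG on either strand (as GGGCGG or CCGCCC), which do not overlap. The first 3 belong to members that were lower and the last 3 to members that were higher. Of the members not shown, NRP1, SEMA3A and EPHA10 had no entry in the promoter set used. The RefSeq start of SEMA3B lay 94 bases from the deposited gene start.
EFNB2 (minus strand, chr13:106535663-106535812): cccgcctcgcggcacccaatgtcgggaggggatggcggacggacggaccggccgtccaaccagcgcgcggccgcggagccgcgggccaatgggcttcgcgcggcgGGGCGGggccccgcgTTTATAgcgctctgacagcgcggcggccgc
SEMA3D (minus strand, chr7:85187057-85187206): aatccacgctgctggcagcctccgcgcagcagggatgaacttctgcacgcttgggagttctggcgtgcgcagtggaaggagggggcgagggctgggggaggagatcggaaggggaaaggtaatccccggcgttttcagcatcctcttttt
SEMA7A (minus strand, chr15:74433959-74434108): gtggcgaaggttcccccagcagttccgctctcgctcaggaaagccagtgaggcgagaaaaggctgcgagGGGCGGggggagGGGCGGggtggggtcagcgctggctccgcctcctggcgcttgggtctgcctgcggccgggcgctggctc
EPHB3 (plus strand, chr3:184561635-184561784): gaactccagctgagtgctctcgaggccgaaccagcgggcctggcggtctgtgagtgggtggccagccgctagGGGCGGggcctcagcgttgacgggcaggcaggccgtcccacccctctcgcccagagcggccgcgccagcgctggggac
PLXNB1 (minus strand, chr3:48430087-48430236): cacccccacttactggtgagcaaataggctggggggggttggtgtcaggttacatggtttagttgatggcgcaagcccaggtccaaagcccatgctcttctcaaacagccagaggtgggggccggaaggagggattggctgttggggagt
SEMA3G (minus strand, chr3:52445104-52445253): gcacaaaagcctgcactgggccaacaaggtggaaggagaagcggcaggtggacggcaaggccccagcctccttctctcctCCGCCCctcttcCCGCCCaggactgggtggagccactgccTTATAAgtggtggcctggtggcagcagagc

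These stretches ran from 58% G and C before PLXNB1 to 78.7% before EFNB2, and a run of A or T stood before EFNB2 and SEMA3G only, that is, before 1 lower and 1 higher gene of the 6. Over the longer window of 250 bases, 47 members had an entry in the RefSeq promoter set used, which held none for NRP1. Of these, 42.6% held a run of at least 6 A or T, beside 58.7% of all 35116 promoters. GGGCGG on either strand was found in 80.9% of the members' promoters and 42.6% of all, and TATAAA on either strand, which overlaps the A or T runs, in 2.13% and 10.7%. The median G and C content was 67.6% for the members and 58% for all. The sets compared are unlike. For each member 1 promoter was kept, the nearest to the deposited gene start, and all 53 members are protein coding. The 35116 promoters were not reduced or restricted in this way.

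NRP1, the co-receptor of class 3 semaphorins and of VEGF, was the member with the most counts in shNC and had the largest fall in shHMGA2-2. It lies on the minus strand of chromosome 10 (chr10:33177492-33336262, GRCh38). It had 17470 and 18094 counts in shNC, beside 4310 and 4517 in shHMGA2-1 and 483 and 430 in shHMGA2-2. The 3 lines did not overlap, and the libraries of a line lay close together beside the steps between lines. The log2 fold change was -2.09 (standard error 0.07, edgeR adjusted p = 4.28e-17) in shHMGA2-1 and -5.36 (standard error 0.08, adjusted p = 1.97e-24) in shHMGA2-2. Between the knockdown lines it was -3.27 (adjusted p = 1.4e-20).

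NRP2, the neuropilin preferred by SEMA3F and SEMA3G, did not follow it. It had 226 and 250 counts in shNC against 339 and 348 in shHMGA2-1 and 360 and 416 in shHMGA2-2, with log2 fold changes of 0.45 and 0.62 (edgeR adjusted p = 0.00573 and 9.7e-05) that stayed under 2-fold. In FPKM, NRP1 stood 93.0 and 87.2 times above NRP2 in the shNC libraries, 15.4 and 15.7 times in shHMGA2-1, and 1.62 and 1.25 times in shHMGA2-2. The lead of NRP1 within the pair was thus smallest in shHMGA2-2. NRP1 alone held 42.7% and 43.1% of all counts of the 53 members in shNC against 14.9% and 16.7% in shHMGA2-1 and 1.89% and 1.55% in shHMGA2-2.

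The genes beside NRP1 were read in the same fit, and were named after their values had been seen. All 4 other tested genes within 500 kb were called lower in shHMGA2-2: ITGB1, which encodes the integrin beta 1 chain (log2 fold change -1.47), its divergent transcript ITGB1-DT (-2.46), CCDC7 (-1.22) and the pseudogene AK3P5 (-2.32). In shHMGA2-1 only ITGB1-DT was called. Over all tested genes 3.59% were called lower in shHMGA2-1 and 9.65% in shHMGA2-2. The 4 genes are not separate stretches: AK3P5 lies within the bounds of ITGB1 on the other strand, and ITGB1-DT overlaps those bounds. AK3P5 was also scarce, with 16 and 18 counts in shNC and 2 and 5 in shHMGA2-2. The median log2 fold change of the 4 genes was -0.67 in shHMGA2-1 and -1.89 in shHMGA2-2, nearer to 0 than that of NRP1 in each line. A non-coding gene on the opposite strand, AL121748.2, overlaps 4.9% of the exonic bases of NRP1, and the strand setting of the counting is not given in the sources used here.

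Among the secreted semaphorins, 4 of 7 were called lower and 1 higher in shHMGA2-1, and 3 lower and 1 higher in shHMGA2-2. Of all tested genes 3.59% were called lower and 4.89% higher in shHMGA2-1, and 9.65% and 11.7% in shHMGA2-2. SEMA3A, the classical repellent ligand of NRP1 and A plexins, had 149 and 145 counts in shNC, compared with 16 and 23 in shHMGA2-1 and 43 and 31 in shHMGA2-2. Each knockdown library lay well below each shNC library. The log2 fold change was -2.98 (standard error 0.26) in shHMGA2-1 and -2.07 (standard error 0.23) in shHMGA2-2, with edgeR adjusted p of 1.78e-09 and 3.75e-08. SEMA3A was thus low in both lines, with the 0.92 between them under 2-fold (adjusted p = 0.0185).

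SEMA3B, a ligand named as a candidate tumour suppressor of the short arm of chromosome 3, had 333 and 299 counts in shNC, beside 85 and 76 in shHMGA2-1 and 16 and 34 in shHMGA2-2. The order of the lines was that of NRP1, with a log2 fold change of -2.05 and -3.73 (edgeR adjusted p = 1.77e-09 and 2.36e-13) and of -1.68 between the knockdown lines (adjusted p = 7.47e-06), which was -0.52 with limma on log2(FPKM + 1). Its neighbour SEMA3F, 78.5 kb away on the same strand and the main ligand of NRP2, stayed nearer to shNC: 179 and 182 counts in shNC against 142 and 130 in shHMGA2-1 and 114 and 130 in shHMGA2-2, below 2-fold in both lines. The 29 tested genes within 500 kb of SEMA3B had a median log2 fold change of 0.10 and 0.14, with 0 and 7 of them called. Of all genes 11.7% were called higher and 9.65% lower in shHMGA2-2. Beside other members called lower in shHMGA2-2 the neighbours went either way. Their median there was -0.97 for 5 genes beside EFNB1, -0.76 for 2 beside EFNB2 and 0.71 for 11 beside EPHB2. These examples were picked after their values had been seen.

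SEMA3D and SEMA3E lie on either side of SEMA3A on the minus strand of chromosome 7, 502.8 and 306.6 kb away. SEMA3D, a ligand known from heart and vessel development, had 212 and 202 counts in shNC, compared with 107 and 91 in shHMGA2-1 and 85 and 106 in shHMGA2-2. The lines overlapped with each other but not with shNC, at log2 fold changes of -1.14 and -1.20 (edgeR adjusted p = 6.22e-06 and 1.09e-06). With limma on log2(FPKM + 1) these were -0.55 and -0.54, and on log2(FPKM + 0.1) -0.99 and -0.98, under 2-fold.

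SEMA3E, which binds PLXND1 without a neuropilin, was scarce, with 14 and 23 counts in shNC, beside 3 and 4 in shHMGA2-1 and 13 and 8 in shHMGA2-2. It was called lower in shHMGA2-1 (log2 fold change -2.44, standard error 0.62, edgeR adjusted p = 0.00364), a call that ended without shNC replicate 2 (adjusted p = 0.063). In shHMGA2-2 the value was -0.89 (adjusted p = 0.14), and the difference between the knockdown lines was not past the threshold (1.55, adjusted p = 0.0635).

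SEMA3C, 2440.9 kb before SEMA3E on the same chromosome and strand, was the most abundant semaphorin in every library and was not called in any comparison. It had 30.57 and 31.12 FPKM in shNC against 27.09 and 33.79 in shHMGA2-1 and 44.41 and 46.94 in shHMGA2-2. The shHMGA2-1 libraries lay on both sides of shNC, and shHMGA2-2 was higher by 0.45 on the log2 scale (edgeR adjusted p = 4.59e-05), under 2-fold. Its share of the summed FPKM of the secreted semaphorins went from 79.0% and 79.8% in shNC to 94.1% and 93.7% in shHMGA2-2.

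SEMA3G, which signals through NRP2, was the secreted semaphorin that rose. It had 0 and 6 counts in shNC, compared with 102 and 76 in shHMGA2-1 and 16 and 13 in shHMGA2-2. The log2 fold change was 4.76 (standard error 0.51, edgeR adjusted p = 5.76e-08) in shHMGA2-1 and 2.15 (standard error 0.68, adjusted p = 0.00923) in shHMGA2-2, and it differed between the lines (-2.61, adjusted p = 2.87e-06). The shNC level rests on a single library: with shNC replicate 1 left out the value was 3.78 in shHMGA2-1 and 1.17 in shHMGA2-2, and with shNC replicate 2 left out it was 9.46 and 6.85. The last pair are fits against 0 counts and are no bound. The call in shHMGA2-2 ended without shNC replicate 1 (adjusted p = 0.134) or shHMGA2-2 replicate 1 (0.0729). At its highest SEMA3G reached 1.18 FPKM, far below SEMA3C.

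**Figure D3:**
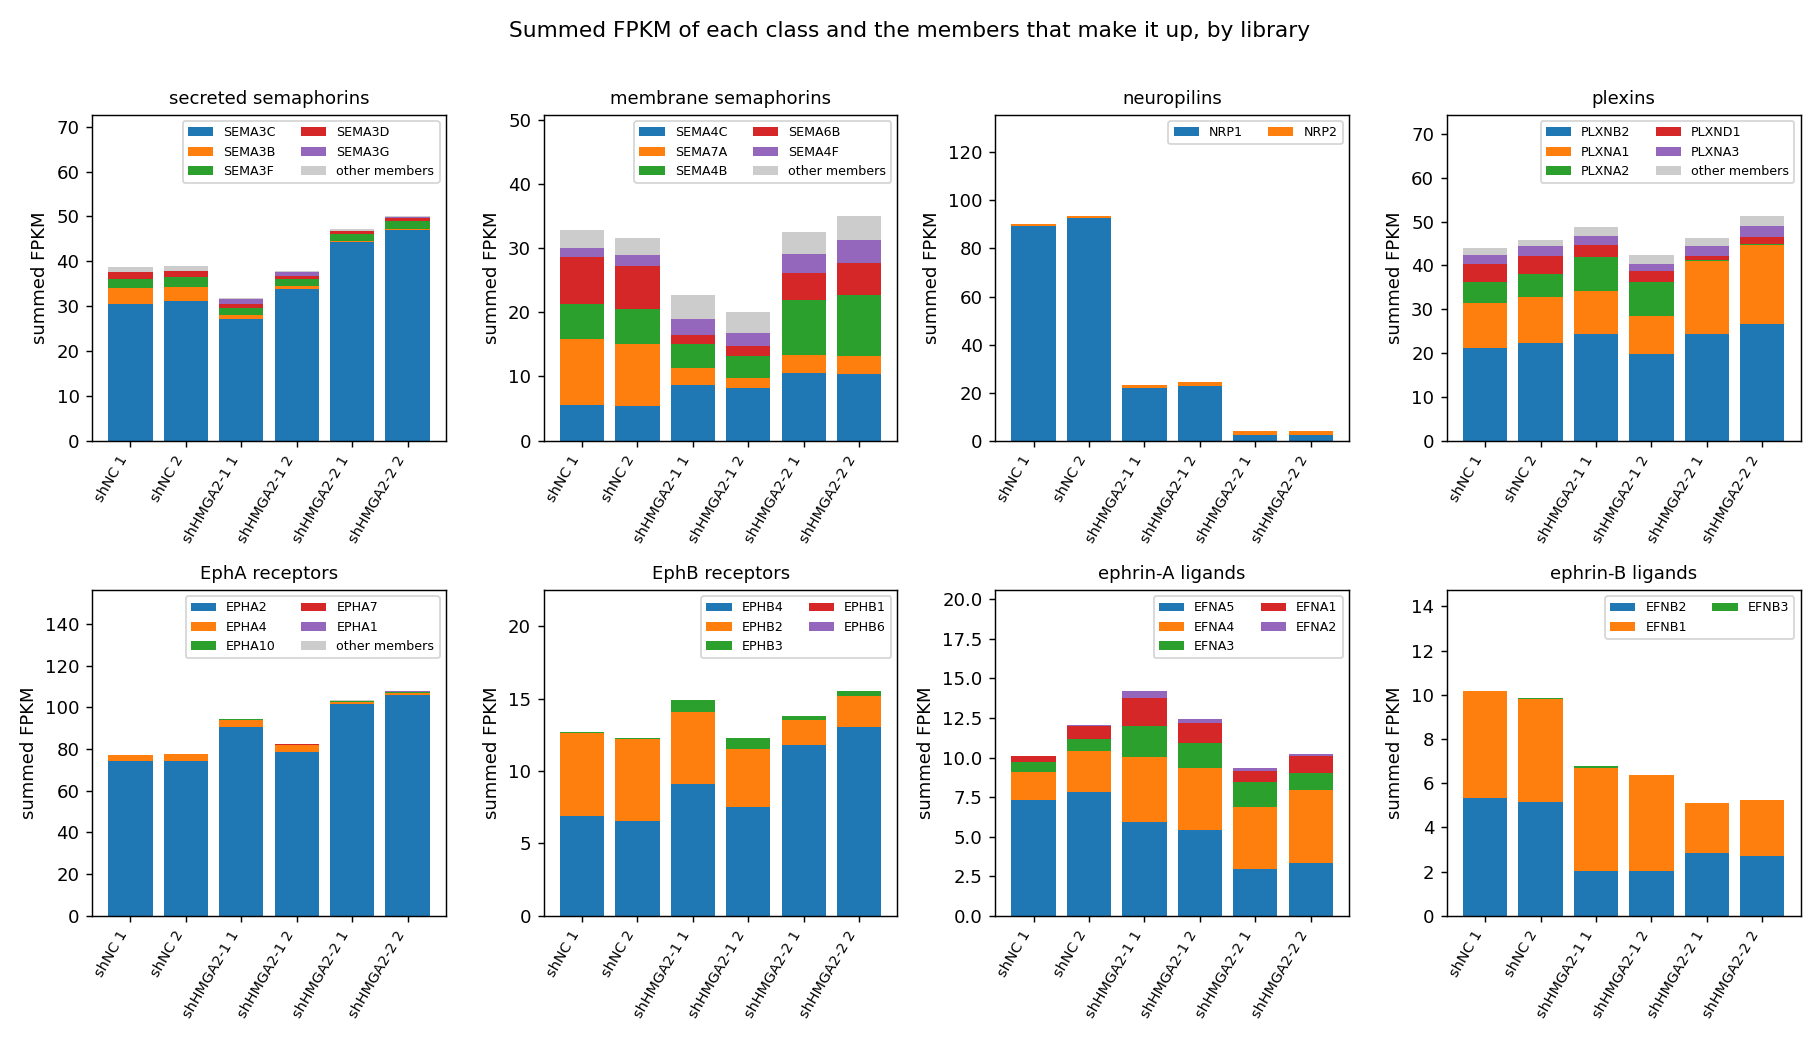
Summed FPKM of each class in each of the 6 libraries as stacked bars, with the 5 highest members of a class in colour and the rest in grey. The neuropilin bar shrank from 90.28 and 93.54 in shNC to 4.12 and 4.05 in shHMGA2-2, whereas the plexin bar stayed between 42.31 and 51.31.

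Of the 13 membrane-bound semaphorins, 10 were tested, and 2 were called in shHMGA2-1, both lower, and 3 in shHMGA2-2, 2 lower and 1 higher. The shares of all genes were 3.59% lower and 4.89% higher in shHMGA2-1, and 9.65% and 11.7% in shHMGA2-2. SEMA7A, a lipid-anchored semaphorin that binds PLXNC1 and integrins with a beta 1 chain, led this class in shNC with 10.42 and 9.65 FPKM. It had 2.64 and 1.54 FPKM in shHMGA2-1 and 2.85 and 2.89 in shHMGA2-2. The shHMGA2-1 libraries stood further apart from each other than those of the other lines, yet both lay far below shNC. It fell by 2.33 and 1.93 on the log2 scale (standard error 0.15 each, edgeR adjusted p = 1.16e-11 and 3.64e-11), and the knockdown lines differed by 0.40 (adjusted p = 0.0544).

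SEMA6B, a transmembrane ligand of class A plexins, was lower in shHMGA2-1 than in the other lines. It had 579 and 527 counts in shNC, beside 124 and 125 in shHMGA2-1 and 328 and 389 in shHMGA2-2. Against shNC the log2 fold change was -2.23 (edgeR adjusted p = 1.3e-12) in shHMGA2-1 and -0.71 (adjusted p = 7.62e-06, under 2-fold) in shHMGA2-2, and the lines differed by 1.52 (adjusted p = 8.09e-10). Its relative SEMA6D, another A plexin ligand, was lowest in shHMGA2-2 instead: 75 and 58 counts in shNC against 85 and 88 in shHMGA2-1 and 11 and 8 in shHMGA2-2. It was called lower in shHMGA2-2 (-2.87, standard error 0.33, adjusted p = 6.96e-08) and differed between the lines by -3.17 (adjusted p = 1.1e-08).

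Of the class 4 semaphorins, only SEMA4D was called against shNC. SEMA4D, the ligand of PLXNB1, had 243 and 235 counts in shNC, compared with 329 and 295 in shHMGA2-1 and 545 and 535 in shHMGA2-2, and was called higher in shHMGA2-2 (log2 fold change 1.10, standard error 0.11, edgeR adjusted p = 9.48e-09), a call that went under 2-fold with limma on log2(FPKM + 1) (0.73). SEMA4B had 643 and 653 counts in shNC, beside 434 and 412 in shHMGA2-1 and 981 and 1094 in shHMGA2-2. It thus lay below shNC in one knockdown line (-0.69) and above it in the other (0.60), each under 2-fold, and was called between them (1.29, adjusted p = 3.21e-11). SEMA4C, a ligand of PLXNB2, had 5.49 and 5.41 FPKM in shNC against 8.74 and 8.20 in shHMGA2-1 and 10.49 and 10.31 in shHMGA2-2, at 0.57 and 0.81 on the log2 scale. With the fall of SEMA7A, SEMA4C was the highest of the class in all 4 knockdown libraries.

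All 9 plexins were tested. A single plexin was called in shHMGA2-1, as higher, and in shHMGA2-2 2 were higher and 2 lower. Of all genes 4.89% were called higher in shHMGA2-1, and 11.7% higher and 9.65% lower in shHMGA2-2. PLXNA2, a receptor for class 6 semaphorins and, with a neuropilin, for SEMA3A, had 1087 and 1233 counts in shNC, compared with 1830 and 1811 in shHMGA2-1 and 30 and 52 in shHMGA2-2. It was thus highest in one knockdown line and lowest in the other. Against shNC, PLXNA2 was 0.57 higher on the log2 scale (standard error 0.09, edgeR adjusted p = 3.14e-05, under 2-fold) in shHMGA2-1 and changed by -4.90 (standard error 0.15, adjusted p = 8.2e-19) in shHMGA2-2. The difference between the lines, -5.47 (adjusted p = 1.05e-19), was the widest among the members.

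PLXNA1, another receptor for class 3 semaphorins, was present throughout, with 10.31 and 10.54 FPKM in shNC, beside 9.83 and 8.65 in shHMGA2-1 and 16.59 and 18.25 in shHMGA2-2. It was 0.62 higher on the log2 scale in shHMGA2-2 (edgeR adjusted p = 9.9e-08), under 2-fold. PLXNA1 stood 2.23 and 2.01 times above PLXNA2 in FPKM in shNC, 1.28 and 1.13 times in shHMGA2-1, and 128 and 79.3 times in shHMGA2-2. PLXNA3, which with NRP2 receives SEMA3F, had 419 and 434, 420 and 330, and 432 and 498 counts in shNC, shHMGA2-1 and shHMGA2-2 and was not past the threshold in either line (adjusted p = 0.0863 and 0.766).

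PLXNA4, a plexin best known from neurons, was at 0 and 1 counts in shNC against 2 and 1 in shHMGA2-1 and 20 and 26 in shHMGA2-2. As both other lines were at or under 3 counts per library, the sizes are given as ratios of counts per library total after TMM scaling. They were 43.5 against shNC (95% counting interval 7.43 to 1755) and 15.3 against shHMGA2-1 (4.92 to 76.98). The edgeR adjusted p was 2.01e-05 and 9e-05. Even so it reached 0.10 FPKM at most, a low level. The 4 neuronal markers summed to 1.00 to 1.15 FPKM in shNC, 1.10 to 1.33 in shHMGA2-1 and 1.01 to 1.21 in shHMGA2-2, most of it from TUBB3. TUBB3 had 122 and 112 counts in shNC and 71 and 87 in shHMGA2-2, while SYP went from 18 and 10 to 40 and 46 and SNAP25 from 3 and 3 to 14 and 20. Their part in the rise of PLXNA4 was not tested.

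PLXNB1, the receptor of SEMA4D, rose in both lines. It had 5 and 10 counts in shNC, compared with 88 and 58 in shHMGA2-1 and 74 and 89 in shHMGA2-2. The knockdown libraries overlapped each other and lay far above shNC. Changes on the log2 scale were 3.18 (standard error 0.37, edgeR adjusted p = 2.51e-07) and 3.34 (standard error 0.36, adjusted p = 2.47e-08), and 0.16 between the knockdown lines (adjusted p = 0.62). With 0.35 to 0.55 FPKM it remained far below PLXNB2.

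PLXNB2, the most abundant plexin and the receptor of SEMA4C, had 21.23 and 22.22 FPKM in shNC, beside 24.36 and 19.90 in shHMGA2-1 and 24.46 and 26.53 in shHMGA2-2. Changes of -0.04 and 0.11 on the log2 scale were not past the threshold (edgeR adjusted p = 0.754 and 0.23). PLXND1, the receptor of SEMA3E and a partner for SEMA3C, was lowest in shHMGA2-2. It had 668 and 692 counts in shNC against 446 and 422 in shHMGA2-1 and 168 and 240 in shHMGA2-2. The change was -0.73 in shHMGA2-1, under 2-fold, and -1.82 in shHMGA2-2 (adjusted p = 5.47e-12). Between the lines it was -1.09 (adjusted p = 1.33e-07), which went under 2-fold without shHMGA2-2 replicate 1 (-0.88) and with limma on log2(FPKM + 1) (-0.68). PLXNB3 and PLXNC1 were not past the threshold in either line, and 20.4% of the exonic bases of PLXNB3 are shared with SRPK3.

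**Figure D4:**
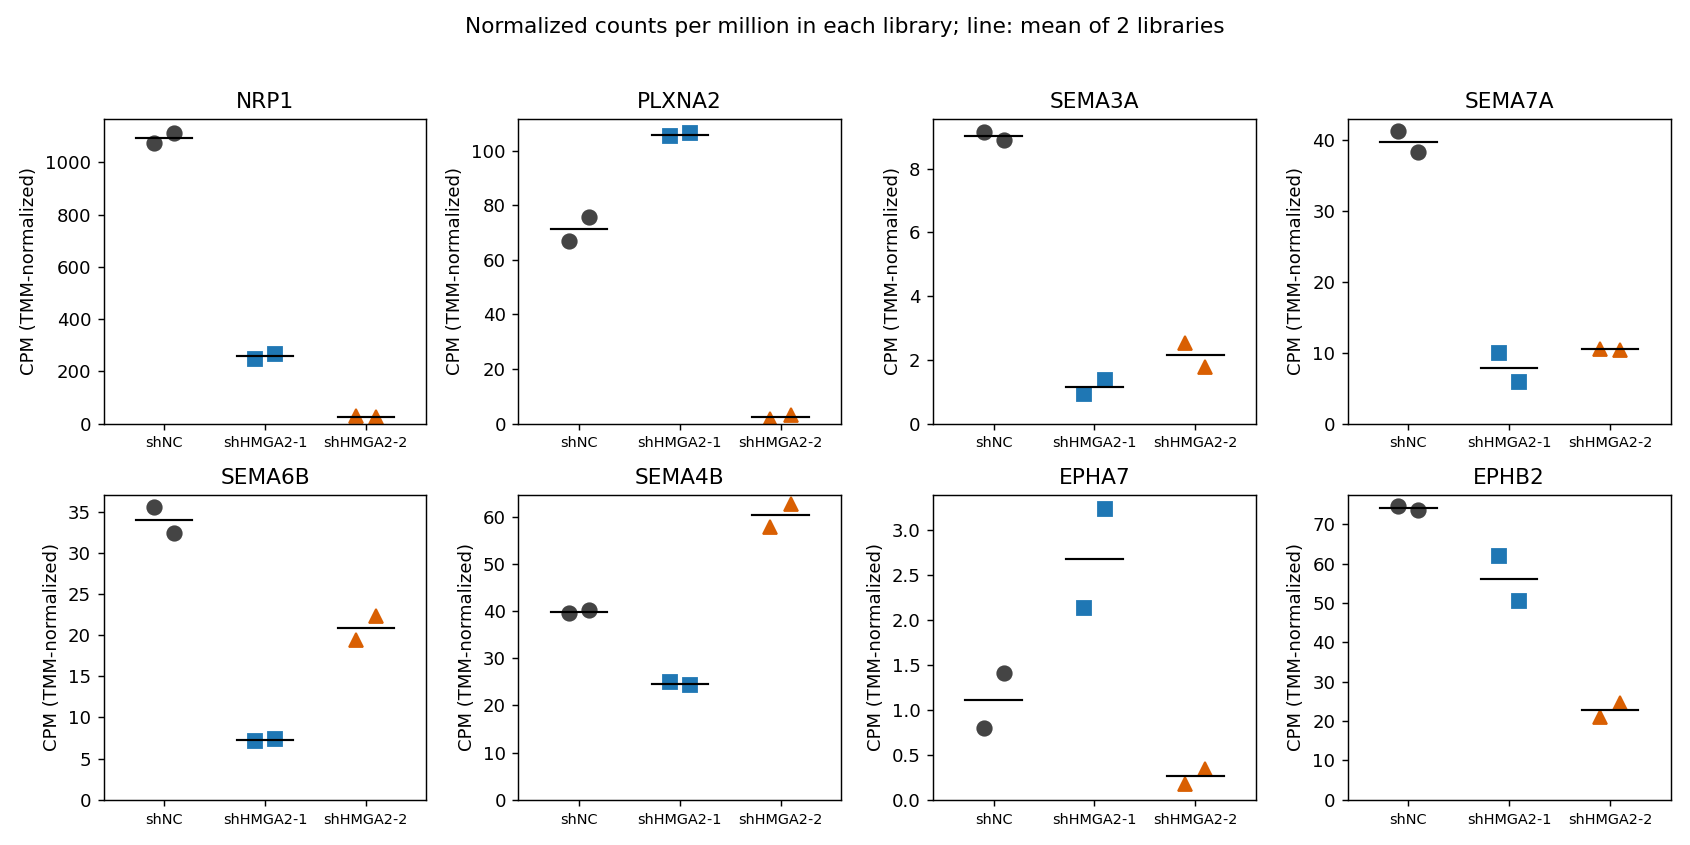
TMM-normalized CPM of 8 members in each of the 6 libraries, with a line at the mean of the 2 libraries; each panel starts at 0. NRP1, SEMA3A and SEMA7A lay below shNC in both knockdown lines, whereas PLXNA2, SEMA4B and EPHA7 lay on opposite sides of it in the knockdown lines.

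Among the EphA receptors 5 of 9 were tested, with 2 called in shHMGA2-1, both higher, and 1 higher and 3 lower in shHMGA2-2. Of all genes 4.89% were called higher in shHMGA2-1, and 11.7% higher and 9.65% lower in shHMGA2-2. EPHA2, a receptor often abundant in breast cancer cells of the basal kind, dominated the class. It had 74.46 and 74.43 FPKM in shNC, compared with 90.45 and 78.41 in shHMGA2-1 and 101.43 and 105.97 in shHMGA2-2. This made up 95% to 98.3% of the summed FPKM of EphA receptors in every library. Changes of 0.12 (edgeR adjusted p = 0.185) and 0.36 (adjusted p = 4.69e-05) on the log2 scale were under 2-fold in both lines.

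EPHA4, which binds ligands of both ephrin classes, had 320 and 390 counts in shNC, beside 474 and 463 in shHMGA2-1 and 131 and 137 in shHMGA2-2. It was called lower in shHMGA2-2 (log2 fold change -1.49, standard error 0.13, edgeR adjusted p = 1.04e-09), which was under 2-fold with limma on log2(FPKM + 1) (-0.86). In shHMGA2-1 it was 0.32 higher, under 2-fold, and the lines differed by -1.81 (adjusted p = 3.04e-11). EPHA10, an Eph receptor whose kinase domain is inactive, rose in both lines from 2 and 5 counts in shNC to 30 and 28 in shHMGA2-1 and 85 and 72 in shHMGA2-2. On the log2 scale this was 2.93 (standard error 0.50, adjusted p = 6.49e-05) and 4.36 (0.43, adjusted p = 4.95e-09), with 1.43 between the lines (adjusted p = 0.000246).

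EPHA7 and EPHA6, receptors studied mainly in the nervous system, were scarce. EPHA7 had 13 and 23 counts in shNC against 37 and 55 in shHMGA2-1 and 3 and 6 in shHMGA2-2. It was the member called in opposite directions, at 1.27 (edgeR adjusted p = 0.0137) and -2.05 (adjusted p = 0.00366), and the lines differed by -3.32 (adjusted p = 5.08e-06). The call in shHMGA2-1 ended without shNC replicate 1 (adjusted p = 0.164) or shHMGA2-1 replicate 2 (0.146) and with DESeq2 (0.143), and that in shHMGA2-2 without shNC replicate 2 (0.0686) or shHMGA2-2 replicate 1 (0.0568). EPHA6 had 18 and 16 counts in shNC, compared with 15 and 10 in shHMGA2-1 and 6 and 6 in shHMGA2-2. The call of EPHA6 in shHMGA2-2 (-1.56, adjusted p = 0.0171) ended with DESeq2 (0.138) and without shNC replicate 1 or either shHMGA2-2 library.

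The EphB receptors had 3 tested members of 5. EPHB2, a receptor for ephrin-B ligands, had 1216 and 1198 counts in shNC, beside 1075 and 856 in shHMGA2-1 and 358 and 431 in shHMGA2-2. The change was -0.40 in shHMGA2-1, under 2-fold, -1.69 in shHMGA2-2 (standard error 0.11, edgeR adjusted p = 9.99e-13) and -1.29 between the lines (adjusted p = 3.03e-10), the last being -0.91 with limma on log2(FPKM + 1). EPHB4, the receptor of EFNB2 in vessel formation, had 6.89 and 6.56 FPKM in shNC against 9.07 and 7.51 in shHMGA2-1 and 11.79 and 13.07 in shHMGA2-2, with log2 fold changes of 0.24 and 0.77 that stayed under 2-fold. The share of EPHB4 in the summed EphB FPKM was 54.3% and 53.3% in shNC and 85.6% and 84.2% in shHMGA2-2.

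EPHB3, known from the sorting of intestinal epithelial cells, rose from 5 and 8 counts in shNC to 66 and 60 in shHMGA2-1 and 18 and 28 in shHMGA2-2. This was 3.17 on the log2 scale (standard error 0.41, edgeR adjusted p = 1.08e-06) and 1.72 (standard error 0.47, adjusted p = 0.00299), and the second call ended without shHMGA2-2 replicate 2 (adjusted p = 0.0535). The lines differed by -1.45 (adjusted p = 0.000562). EPHB3 thus was highest in shHMGA2-1, and EPHA10 in shHMGA2-2.

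The 5 ephrin-A ligands were all tested, with 3 called in shHMGA2-1, all higher, and 1 in shHMGA2-2, lower. Of all genes 4.89% were called higher in shHMGA2-1 and 9.65% lower in shHMGA2-2. EFNA1, the main ligand of EPHA2, had 13 and 29 counts in shNC, compared with 66 and 47 in shHMGA2-1 and 25 and 38 in shHMGA2-2. The call in shHMGA2-1 rested on a log2 fold change of 1.34 (standard error 0.36, edgeR adjusted p = 0.00498), and ended without shNC replicate 1 (adjusted p = 0.115) or shHMGA2-1 replicate 1 (0.0541) with DESeq2 (0.0535), and with limma on log2(FPKM + 1) (0.69, under 2-fold) and log2(FPKM + 0.1) (adjusted p = 0.0613). The shNC libraries themselves lay more than 2-fold apart.

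EFNA4 and EFNA3, ligands of EphA receptors, lie before EFNA1 on the plus strand of chromosome 1, with 9.3 kb between EFNA4 and EFNA3 and 40.3 kb between EFNA3 and EFNA1. EFNA3 had 22 and 26 counts in shNC, beside 65 and 52 in shHMGA2-1 and 51 and 36 in shHMGA2-2. It was 1.2 higher on the log2 scale (edgeR adjusted p = 0.00362) in shHMGA2-1 and 0.78 (adjusted p = 0.0404, under 2-fold) in shHMGA2-2. With limma on log2(FPKM + 1) the first was 0.67, under 2-fold. EFNA4 was 0.82 and 0.84 higher, also under 2-fold. In the annotation AL691442.1, on the same strand, covers 44.7% of the exonic bases of EFNA3 and 15% of those of EFNA4, so reads in this stretch may not be told apart.

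EFNA2, a further ligand of EphA receptors, had 1 and 2 counts in shNC against 17 and 11 in shHMGA2-1 and 7 and 6 in shHMGA2-2. Per library total after TMM scaling, the ratio to shNC was 8.84 (95% counting interval 2.73 to 45.4) and 4.10 (1.13 to 22.4). Only the first was called (edgeR adjusted p = 0.00354 and 0.0633), and it was at 0.0583 with DESeq2. EFNA5, known from the layout of retinal axons and the most abundant ephrin-A in shNC, had 711 and 762 counts in shNC, compared with 585 and 533 in shHMGA2-1 and 280 and 320 in shHMGA2-2. It was called lower in shHMGA2-2 (-1.38, standard error 0.11, adjusted p = 4.23e-11), where EFNA4 led the class instead, with 41.8% and 44.5% of its summed FPKM.

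Both tested ephrin-B ligands were lower in shHMGA2-2, and EFNB2 also in shHMGA2-1. Of all genes 9.65% were called lower in shHMGA2-2 and 3.59% in shHMGA2-1. EFNB2, the ligand of EPHB4, had 454 and 437 counts in shNC, beside 175 and 173 in shHMGA2-1 and 232 and 226 in shHMGA2-2. On the log2 scale EFNB2 changed by -1.43 (standard error 0.12, edgeR adjusted p = 1.4e-09) and -1.04 (standard error 0.12, adjusted p = 5.01e-08). The second was under 2-fold with upper quartile scaling (-0.92) and with limma on log2(FPKM + 1) (-0.73) and log2(FPKM + 0.1) (-0.90). AL138689.2 on the opposite strand covers 26.2% of the exonic bases of EFNB2.

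EFNB1, an X-linked ligand of EphB receptors, had 271 and 263 counts in shNC against 265 and 247 in shHMGA2-1 and 124 and 137 in shHMGA2-2. It changed by -0.14 (edgeR adjusted p = 0.437) and by -1.11 (adjusted p = 2.08e-07), the latter being -0.998 and just under 2-fold with upper quartile scaling, and -0.77 and -0.97 with limma on log2(FPKM + 1) and log2(FPKM + 0.1). The summed FPKM of the ephrin-B ligands was 10.17 and 9.85 in shNC, compared with 6.78 and 6.39 in shHMGA2-1 and 5.12 and 5.26 in shHMGA2-2.

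With the 4 knockdown libraries as a single group against shNC, 2 members were called higher (EPHA10 and PLXNB1) and 4 lower (EFNB2, SEMA3A, SEMA3D and SEMA7A), beside 1.72% and 1.37% of all tested genes. The difference between the knockdown lines then counts as error, and the common biological coefficient of variation was 0.291 in place of 0.0583. NRP1, at -2.95, was not past the threshold in this comparison (edgeR adjusted p = 0.136), although all 4 knockdown libraries lay below shNC. With shNC replicate 1 or shNC replicate 2 left out, edgeR called none of these 6 and 4 of all genes. SEMA7A had the lowest adjusted p of the members, 0.00927.

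Genes that act behind these receptors were counted in the same way. Of 28 listed effectors and co-receptors of plexins and neuropilins, such as the MICAL and CRMP families, 23 were tested. In shHMGA2-1 edgeR called 0 of them, as did DESeq2 and limma, with 12 at an unadjusted p under 0.05 and 10 at an adjusted p under 0.05 by edgeR, that is, with changes under 2-fold. In shHMGA2-2 14 had an adjusted p under 0.05 by edgeR and 3 of them were called. There DESeq2 called 3 and limma on log2(FPKM + 1) called 1. Over all tested genes 33.5% and 58.8% had an adjusted p under 0.05 in shHMGA2-1 and shHMGA2-2. The 3 called by edgeR in shHMGA2-2 were FLNA, an actin crosslinker just past 2-fold (log2 fold change -1.01), the kinase FYN (-1.29) and L1CAM, an adhesion molecule that pairs with NRP1 (2.41). The median of this list was -0.09 and -0.21, beside 0.01 and 0.03 over all genes. Of 23 listed Eph and ephrin effectors 21 were tested. Again edgeR, DESeq2 and limma called 0 in shHMGA2-1, with 9 at an unadjusted p under 0.05 by edgeR. In shHMGA2-2 15 had an adjusted p under 0.05 and edgeR called 2 of them. These were RASA1, a Ras GTPase activator just past 2-fold (1.03), and TIAM1, a Rac exchange factor (-1.19). For this list DESeq2 called 3 in shHMGA2-2 and limma on log2(FPKM + 1) called 1. The shares called of all genes were 4.89% higher and 3.59% lower in shHMGA2-1, and 11.7% and 9.65% in shHMGA2-2.

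Other guidance families had 8 tested of 19 listed netrins, slits, RGM proteins and their receptors. Of these, 1 was called higher and 2 lower in shHMGA2-1, and 2 higher and 4 lower in shHMGA2-2, beside the same shares of all genes. SLIT2, the ligand of Robo receptors, had 523 and 516 counts in shNC, beside 50 and 40 in shHMGA2-1 and 52 and 67 in shHMGA2-2 (-3.60 and -3.20). NEO1, a receptor of netrins and RGM proteins, rose from 135 and 118 to 733 and 726 and to 1431 and 1480 (2.45 and 3.44). NTN4, a netrin of basement membranes, had 1559 and 1652 counts in shNC against 1904 and 2078 in shHMGA2-1 and 25 and 44 in shHMGA2-2 (0.23 and -5.62), a line order like that of PLXNA2. NTN1 was at no more than 2 counts in shNC and shHMGA2-1 and at 56 and 49 in shHMGA2-2.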

How the data were processed

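Each sample's group and number came from its title. The authors deposited a table with a raw count and an FPKM value for each gene and library. Per the submitters' processing notes, HISAT2 version 2.2.1, HTSeq version 0.6.1 and GRCh38.p13 were used, and the annotation and strand setting are not given in the sources used here. Recomputing FPKM from the deposited counts gave 100% of the FPKM values to within 0.005. Sample columns not used numbered 0.

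Counts were analysed in edgeR version 4.0.16 (R version 4.3.3) by the quasi-likelihood test in a model with 3 groups, after the filter of filterByExpr and TMM scaling (0.958 to 1.053), and p-values were adjusted by Benjamini-Hochberg over the 16110 genes left. edgeR stood in place of the DESeq2 of the methods. Intervals and floors cover counting error only.

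Named were the members called in any comparison of lines, those with at least 10 FPKM in shNC and those at no more than 3 counts, and from each list of other genes at most 4, those with the largest mean change among the called. A few others serve as comparison. The members and lists were chosen with earlier results of these data known. Alternatives were DESeq2 version 1.42.0, upper quartile scaling, no filter, limma version 3.58.1 on log2(FPKM + 1) and log2(FPKM + 0.1) for genes with a mean of at least 0.5 FPKM, the replicate number as a block, and each of the 6 libraries left out. Promoters came from RefSeq (GRCh38.p14), exon overlaps from GENCODE version 29 (python version 3.11.15).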

Additional observations from a re-analysis of the deposited data

Results flagged for a closer look

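In 14 members the change against shNC differed between the knockdown lines, by the direct edgeR test of shHMGA2-2 against shHMGA2-1 (adjusted p under 0.05 and at least 2-fold). Of all 16110 tested genes 7.83% were called higher and 7.27% lower in this comparison, so such differences were not particular to the members. The log2 difference of shHMGA2-2 from shHMGA2-1 was -5.47 for PLXNA2, -3.32 for EPHA7, -3.27 for NRP1, -3.17 for SEMA6D and -2.61 for SEMA3G. It was -1.81 for EPHA4, -1.68 for SEMA3B, -1.45 for EPHB3, -1.29 for EPHB2 and -1.09 for PLXND1. On the other side it was 3.83 for PLXNA4, 1.52 for SEMA6B, 1.43 for EPHA10 and 1.29 for SEMA4B. Of these, NRP1, SEMA3B, SEMA3G, EPHA10 and EPHB3 were called against shNC the same way in both lines and differed in size. With 2 libraries per line, no test for a library apart from the rest of its group was made.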

How the results depend on the processing

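Among single members and HMGA2, 1347 values kept their direction and their side of the threshold under the alternatives, 72 fell back behind it, 13 passed it anew and 16 turned their sign. None of these 16 belonged to a called value, and the cause was not tested. With upper quartile scaling PLXNB2 in shHMGA2-1 became 0.026 (main -0.04), and with limma 0.019 and 0.020, while SEMA3D between the knockdown lines became 0.0038 and 0.007 (main -0.05). With a library left out, PLXNB2 ran from -0.18 to 0.087 and SEMA3C from -0.27 to 0.082 in shHMGA2-1. Between the lines SEMA3D ran from -0.20 to 0.076 and PLXNB1 from -0.097 to 0.47. For all shHMGA2 libraries against shNC, EPHA7 ran from -0.32 to 0.88, PLXNA2 from -0.96 to 0.0067, PLXNB2 from -0.0078 to 0.10 and SEMA4B from -0.16 to 0.28. Limma on log2(FPKM + 1) and log2(FPKM + 0.1) tested 29 members, after its filter on FPKM, and called fewer: 5 and 6 in shHMGA2-1 against shNC (main 16, of which 8 were tested by limma), 7 and 9 in shHMGA2-2 (main 21, 12 of them tested), 5 and 8 between the knockdown lines (main 14, 8 of them tested), and 2 and 2 for all shHMGA2 libraries against shNC (main 6, 3 of them tested). That last comparison gave 10 with DESeq2 and 1 with the replicate block. With a library left out, the numbers were 14 to 16, 19 to 22, 14 to 18 and, for all shHMGA2 libraries, 0 to 6, with 0 without shNC replicate 1 or shNC replicate 2; there the lone shNC library is assumed to vary like the others. In these fits 4 of all genes were called, and 8 and 14 members had an unadjusted p under 0.05 by edgeR. Replicate numbers were shared as numbers only: deviations of same-numbered libraries correlated with -0.0218, 0.00213 and -0.1, and with the replicate block 16, 21 and 15 members were called between the lines. Upper quartile scaling moved the median of all genes in shHMGA2-2 by 0.115 on the log2 scale, and limma by 0.112 and 0.118. For the 10 untested members, with at most 12 counts, absence and a level too low for this depth cannot be told apart.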
